A study of Homo sapiens with 21 samples.

Results

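The response of OCI-AML5 cells to 24 h of UM171 was examined by comparing 3 libraries of UM171-treated cells with 3 libraries of cells kept in DMSO, the vehicle. These 6 of the 21 libraries of the series were taken by their labels alone, and no measured value was used to choose them. OCI-AML5 is an established line from a human acute myeloid leukemia. The treated cells carry the labels UM171 and 24h and the control cells the labels DMSO and 72h, and neither set of labels names a guide RNA, whereas 6 further libraries are labelled as clonal cells with the guide sgEPCR, called EPCR null in one label and EPCR knockdown in another. Per the labels both groups were grown in DMEM with fetal bovine serum and the dose of UM171 was 500 nM, while the text of the study names another dose and another medium. Since the control was labelled 72 h and the treated cells 24 h, an effect of UM171 and one of time in culture cannot be told apart in this comparison. Libraries at 6, 48 and 72 h of UM171 were in the same fit, so the estimated spread and the filter on low counts rest on them too. Beyond that, they and the sgEPCR libraries are used only to place the 24 h values. It is not stated whether the 3 libraries of a group came from separate cultures, so p-values measure the spread between these libraries, which may be technical.

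UM171 is a small molecule that supports the expansion of human hematopoietic stem cells in culture. It leads to the degradation of the CoREST corepressor complex, in which the histone demethylase LSD1 and histone deacetylases are held together by the scaffold RCOR1, through a ubiquitin ligase built on CUL3 with KBTBD4 as the substrate adaptor. Genes held down by that complex can then be transcribed. The endothelial protein C receptor EPCR, encoded by PROCR, is a known surface marker of stem cells expanded with the compound.

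Depth lay between 24.3 and 51.5 M counts per library, with the lowest and the highest both among the 24 h libraries, and mitochondrial genes took 7.73 to 9.39% of the counts. Leukocyte and myeloid markers were present in all 6 libraries. Levels are given in TPM, the transcripts of a gene per M transcripts, which accounts for length. The phosphatase PTPRC (CD45) lay between 159 and 219 TPM, the surface receptor CD33 between 131 and 179 TPM, and lysozyme, LYZ, between 649.6 and 1415 TPM. The progenitor receptor KIT was near 0, at no more than 0.07 TPM. Replicate libraries differed from each other by more than sampling noise, so none was counted as a duplicate.

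Of 16575 genes tested, 2276 (13.7%) were called, meaning that the Benjamini-Hochberg adjusted p of edgeR's quasi-likelihood test was under 0.0001 and the change over 2-fold. The call was higher for 1497 genes (9.03%) and lower for 779 (4.7%). Among those called higher, 602 changed by over 4-fold, 276 by over 8-fold and 119 by over 16-fold, against 210, 65 and 25 of those called lower. The median log2 fold change was 1.71 for genes called higher, -1.44 for genes called lower and -0.01 for all genes tested. Without a minimum fold, 5785 genes (34.9%) were higher and 5775 (34.8%) lower at an adjusted p under 0.05, so that limit alone was passed by most genes. Protein-coding genes made up 1292 of the genes called higher and 575 of those called lower, and long noncoding RNAs 144 and 126. Counts of at most 3 in every DMSO library and at least 10 in every 24 h library were found for 97 genes, and the reverse for 24. A gene near 0 in DMSO was tested only where libraries with UM171, at any of the times, gave enough counts. The called shares and medians of gene lists with such members partly rest on that filter. The 2 groups did not overlap in TPM for 2250 of the 2276 called genes, so for a called gene a lack of overlap adds little to the call. The share without overlap among all 16575 tested genes was not counted. Where a lack of overlap is given for a gene that was not called, or for a summed level, it is a description only.

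**Figure D1:**
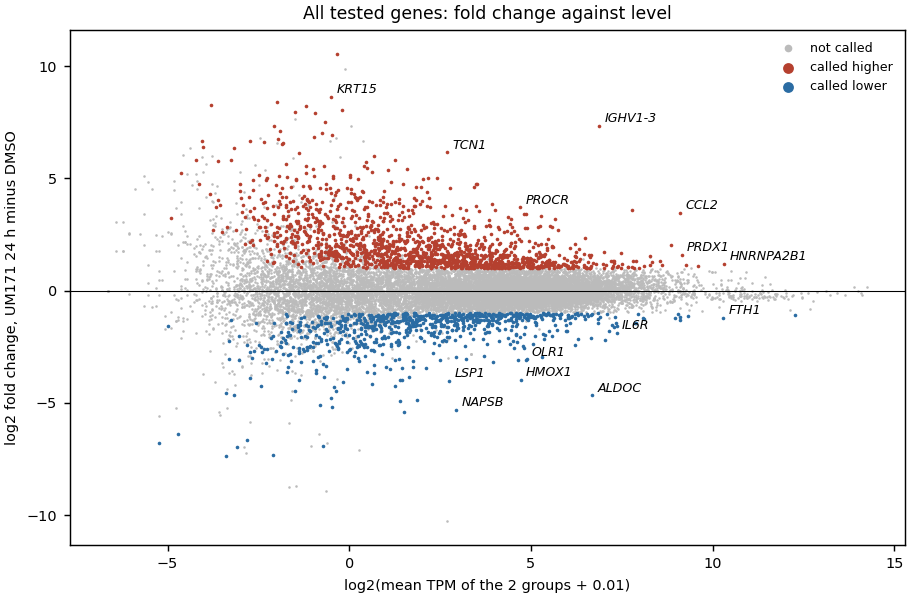
Log2 fold change of each of the 16575 tested genes (UM171 24 h minus DMSO) against log2 of the mean TPM plus 0.01, with the genes called higher and called lower in colour. The 1497 genes called higher outnumber the 779 called lower.

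The study follows PROCR, IL1B, CD86 and SOD1 in these cells. PROCR (chr20:35172072-35216240, GRCh38) stood at 3.37, 4.3 and 3.38 TPM in DMSO and 48.5, 48.5 and 48.5 TPM at 24 h, a log2 fold change of 3.71 (SE 0.09, adjusted p = 1.7e-15 by edgeR). IL1B (chr2:112829751-112836816), the gene of the cytokine interleukin-1 beta, stood at 5.62, 5.39 and 5.77 TPM in DMSO and 33, 31.5 and 39.8 TPM at 24 h, a log2 fold change of 2.65 (SE 0.09). The groups did not overlap for either gene, and both rose. The costimulatory ligand gene CD86 (chr3:122055362-122121139) was at 1.62, 1.55 and 1.96 TPM in DMSO and 7.13, 9.44 and 8.88 TPM at 24 h, a log2 fold change of 2.19 (SE 0.10). Cytosolic superoxide dismutase, SOD1 (chr21:31659666-31668931), started from a far higher level, with 122, 138 and 137 TPM in DMSO and 349.9, 341 and 327 TPM at 24 h, a log2 fold change of 1.31 (SE 0.06). These groups did not overlap either, and both genes rose. In bulk RNA a change in the level per cell and a change in the share of cells that express a gene cannot be told apart.

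**Figure D2:**
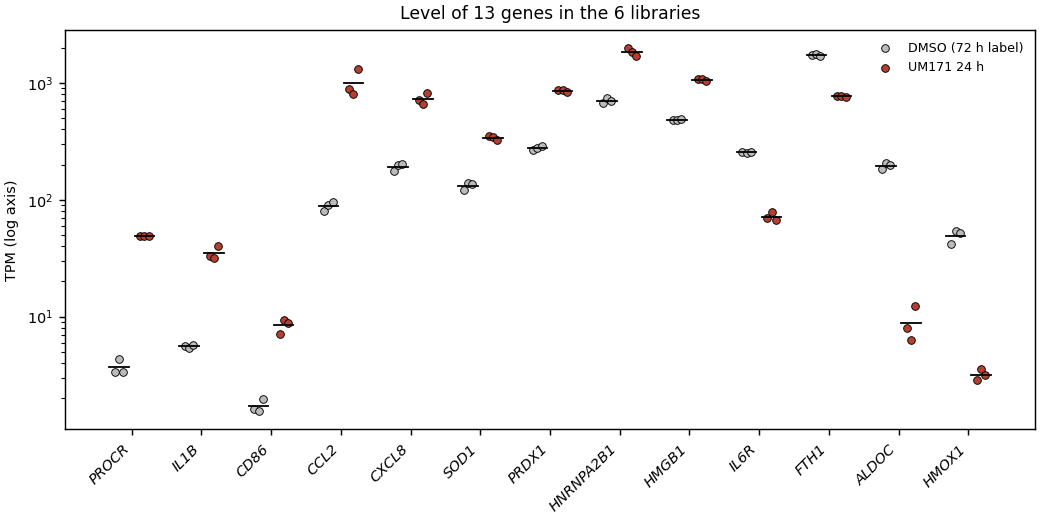
TPM (log axis) of 13 genes in the 3 DMSO libraries and the 3 libraries at 24 h of UM171, 1 point per library, with a bar at each group's mean. PROCR lies at 48.5 TPM in all 3 libraries at 24 h, and at no more than 4.30 TPM in DMSO.

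The start regions of PROCR, CD86 and CXCL8, the last the gene of the chemokine interleukin-8, are shown because these genes were called higher together and because inflammatory genes are often bound near their start by NF-kB and AP-1. The sequences run from 250 bases before to 50 bases after the start in RefSeq on GRCh38.p14, all on the plus strand. Capitals mark an exact match to GGGACTTTC or GGGAATTTC (NF-kB) or to TGACTCA or TGAGTCA (AP-1) on either strand.
PROCR, chr20:35171822-35172121: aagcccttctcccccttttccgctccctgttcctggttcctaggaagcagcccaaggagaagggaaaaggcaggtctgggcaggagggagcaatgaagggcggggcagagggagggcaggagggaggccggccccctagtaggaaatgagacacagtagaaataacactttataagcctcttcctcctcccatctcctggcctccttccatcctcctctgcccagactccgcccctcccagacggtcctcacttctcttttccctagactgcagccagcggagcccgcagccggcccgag
CD86, chr3:122055112-122055411: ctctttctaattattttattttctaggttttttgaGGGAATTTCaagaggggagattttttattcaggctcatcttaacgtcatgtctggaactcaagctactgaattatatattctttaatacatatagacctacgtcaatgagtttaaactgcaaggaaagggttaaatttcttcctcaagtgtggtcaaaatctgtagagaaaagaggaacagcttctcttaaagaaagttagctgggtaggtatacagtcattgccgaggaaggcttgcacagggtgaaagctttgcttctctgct
CXCL8, chr4:73740319-73740618: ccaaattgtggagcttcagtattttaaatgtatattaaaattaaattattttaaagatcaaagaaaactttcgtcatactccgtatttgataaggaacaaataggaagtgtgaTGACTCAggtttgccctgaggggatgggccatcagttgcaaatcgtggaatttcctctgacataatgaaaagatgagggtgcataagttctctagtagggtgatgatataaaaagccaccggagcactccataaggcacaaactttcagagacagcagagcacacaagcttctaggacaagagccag
The match in CD86 is to the NF-kB letters, at position -215 from its start, and the match in CXCL8 to the AP-1 letters, at position -137. Near matches were neither marked nor counted: the CXCL8 window also holds tggaatttc, which differs from GGGAATTTC in its first letter. These letters are not in the windows of PROCR and IL1B. Genes called lower held them too, with the NF-kB letters at -156 in COL7A1 and the AP-1 letters at 37 in IL6R, -71 in CD244 and -134 in GPNMB. Among genes called higher (1106 matched promoters), genes called lower (466) and all genes tested (11359), the NF-kB letters were in 1.27%, 0.644% and 0.731%, and the AP-1 letters in 5.79%, 3.65% and 3.28%. The E-box CACGTG was in 6.96%, 10.7% and 10%, the CRE TGACGTCA in 2.35%, 2.36% and 3.14% and the ETS motif GAGGAAGT in 3.8%, 3% and 2.79%. Among all 27305 promoters of the same length in the table the NF-kB letters were in 0.707% and the AP-1 letters in 4.92%. These shares describe letters in a short window, and none was tested.

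Genes of CoREST and its ligase showed small differences. Of 18 tested members of the list of LSD1-CoREST, GFI1 and KBTBD4 genes, 1 was called higher and 0 lower, with a median log2 fold change of 0.07. Of all genes tested 9.03% were called higher and 4.7% lower. PHF21A, a subunit that reads unmethylated histone H3, rose, with 10.3, 10.3 and 9.97 TPM in DMSO and 22.7, 21.2 and 23.9 TPM at 24 h. HDAC2, a deacetylase and the list's most abundant member in DMSO, was at 191, 214 and 206 TPM in DMSO and 292, 281 and 273 TPM at 24 h (log2 fold change 0.44), with no overlap but short of 2-fold. KDM1A, which encodes LSD1, had a log2 fold change of 0.36 and RCOR1 one of -0.39. Protein was not measured here.

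Around the protein C receptor, genes of coagulation moved mostly upward: 10 of 19 tested were called higher and 2 lower, with a median log2 fold change of 1.18, where 9.03% and 4.7% of all genes tested were called. F2R, the thrombin receptor PAR1, rose, with 9.2 to 9.28 TPM in DMSO and 25.9 to 29.3 TPM at 24 h. TFPI, which inhibits the tissue factor pathway, rose, with 2.34 to 2.83 TPM in DMSO and 12.3 to 15.5 TPM at 24 h, as did tissue factor itself, F3, with 1.8 to 2.32 TPM in DMSO and 5.25 to 9.96 TPM at 24 h. All 3 had groups that did not overlap. Coagulation factor V (F5), which the protein C pathway inactivates, rose with a log2 fold change of 3.5 (SE 0.11). The transglutaminase TGM2 was called from a low level, 0 to 0.10 TPM in DMSO and 0.48 to 0.58 TPM at 24 h. Against these rises, thrombomodulin (THBD), with which thrombin activates protein C, fell, with 7.9, 8.72 and 8.36 TPM in DMSO and 3.98, 3.96 and 3.48 TPM at 24 h. GAS6, a vitamin K dependent ligand of TAM receptors, fell, with 36.9 to 39.2 TPM in DMSO and 16.5 to 20.6 TPM at 24 h. S100A10, the partner of annexin A2 and the most abundant of the list, was at 188 to 217 TPM in DMSO and 120.1 to 129 TPM at 24 h (log2 fold change -0.79) and was not called.

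In the list of interleukin-1, inflammasome and eicosanoid genes 11 of 36 tested were called higher and 1 lower, against 9.03% and 4.7% of all genes tested (median log2 fold change 0.34). Besides IL1B, CASP1, the protease that matures interleukin-1 beta, rose, with 23.9 to 35 TPM in DMSO and 68.7 to 80.2 TPM at 24 h. IL18, a cytokine matured by the same protease, rose, with 0.04 to 0.15 TPM in DMSO and 1.37 to 1.61 TPM at 24 h. PTGS2, the inducible cyclooxygenase, rose, with 0.96 to 1.58 TPM in DMSO and 4.52 to 7.42 TPM at 24 h. HPGD, which inactivates prostaglandins, rose too, from no more than 0.05 TPM to 1.02 to 1.43 TPM. The decoy receptor IL1R2 is listed at 0 TPM in all DMSO libraries and was at 0.40 to 0.70 TPM at 24 h. The prostaglandin E2 receptor PTGER2 was the gene called lower, with 34, 34.9 and 37.7 TPM in DMSO and 11.8, 13.1 and 12.5 TPM at 24 h. PTGES3, the most abundant member, had a log2 fold change of -0.02 (adjusted p = 0.71 by edgeR), and its groups overlapped.

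Among cytokines, chemokines and their receptors 8 of 37 tested were called higher and 2 lower, against 9.03% and 4.7% of all genes tested, with a median log2 fold change of 0.10. The monocyte chemoattractant CCL2 was at 80.7, 89.3 and 95.3 TPM in DMSO and 893, 809.8 and 1315 TPM at 24 h, a log2 fold change of 3.45 (SE 0.13). The neutrophil chemoattractant CXCL8 was at 176, 197 and 201 TPM in DMSO and 713, 654 and 825 TPM at 24 h, a log2 fold change of 2.03 (SE 0.11). Both rose with no overlap and were among the 5 called genes with the largest rise in TPM. The B-cell survival factor TNFSF13B (BAFF) rose, with 8.62 to 9.69 TPM in DMSO and 65.3 to 69.1 TPM at 24 h, and the chemokine CCL3 rose, with 1.92 to 2.41 TPM in DMSO and 14.2 to 27.6 TPM at 24 h. IL6 and CCL20 rose from near 0, IL6 with 0.18, 0 and 0 TPM in DMSO and 0.47, 0.49 and 1.48 TPM at 24 h and CCL20 with 0, 0.07 and 0.13 TPM in DMSO and 1.28, 1.44 and 1.72 TPM at 24 h. The 2 genes called lower were receptors. IL6R, the interleukin-6 receptor and the list's most abundant member in DMSO, fell with 254, 253 and 259 TPM in DMSO and 69.9, 77.9 and 67.4 TPM at 24 h (log2 fold change -1.88, SE 0.04), and the chemokine receptor CXCR4 fell with 24.8 to 28.8 TPM in DMSO and 7.82 to 8.97 TPM at 24 h.

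In the list of NF-kB subunits, inhibitors and feedback genes edgeR called 0 of 31 higher and 0 lower, against 9.03% and 4.7% of all genes tested. At an adjusted p under 0.05, 6 were higher and 15 lower, against 34.9% and 34.8% of all genes tested. The median log2 fold change was -0.20. The kinase IKBKB, the most abundant member, was at 70 to 74.8 TPM in DMSO and 44.3 to 46.2 TPM at 24 h (log2 fold change -0.63). RELA, the main activating subunit, was at 60.9 to 62.1 TPM in DMSO and 35.5 to 44.5 TPM at 24 h (log2 fold change -0.64, SE 0.07). The inhibitor NFKBIA had a log2 fold change of 0.08. 

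Growth factor receptors and JAK-STAT genes gave 3 calls higher and 2 lower among 29 tested, shares near the 9.03% and 4.7% of all genes tested. The interleukin-7 receptor IL7R rose, with 3.05, 3.35 and 4.56 TPM in DMSO and 25.9, 27.2 and 24.4 TPM at 24 h (log2 fold change 2.88, SE 0.06), and the common gamma chain IL2RG, with which it pairs, rose, with 38.9 to 40.6 TPM in DMSO and 97.8 to 104 TPM at 24 h. The G-CSF receptor CSF3R fell, with 86.5 to 91 TPM in DMSO and 39.8 to 42.7 TPM at 24 h, and the kinase JAK2 fell, with 18.3 to 20.5 TPM in DMSO and 7.92 to 8.19 TPM at 24 h. None of these 4 had overlapping groups. PIM1, a STAT5 target and the most abundant of the list, had a log2 fold change of 0.17 and was not called.

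Within peroxide, thioredoxin and glutathione defence 10 of 53 tested genes were called higher and 3 lower, against 9.03% and 4.7% of all genes tested, with a median log2 fold change of 0.09. The peroxidase PRDX1 rose, with 265, 278 and 287 TPM in DMSO and 864, 869 and 838 TPM at 24 h, a log2 fold change of 1.6 (SE 0.07). PRDX6, another peroxidase, rose with 149 to 152 TPM in DMSO and 283 to 287 TPM at 24 h, the glutathione transferase GSTP1 rose with 180.1 to 204 TPM in DMSO and 425 to 437 TPM at 24 h, and SLC7A11, which imports cystine for glutathione synthesis, rose with 3.67 to 5.63 TPM in DMSO and 13.8 to 14.7 TPM at 24 h. The groups of these genes did not overlap. Heme oxygenase, HMOX1, fell, with 41.9, 54 and 51.8 TPM in DMSO and 2.88, 3.55 and 3.15 TPM at 24 h, a log2 fold change of -3.98 (SE 0.11). Ferritin heavy chain, FTH1, which stores iron, fell, with 1741, 1769 and 1714 TPM in DMSO and 767, 774 and 765 TPM at 24 h. The most abundant member was ferritin light chain, FTL, with 4146 to 4256 TPM in DMSO and 3383 to 3718 TPM at 24 h, which was not called. GSTM2, called lower with 0.49 to 0.71 TPM in DMSO and 0.14 to 0.25 TPM at 24 h, and GSTM1 and GSTM4, called higher, belong to a family of similar genes among which reads can be split.

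Of 35 heat shock and chaperone genes 1 was called higher and 3 lower, against 9.03% and 4.7% of all genes tested. At an adjusted p under 0.05, 21 were higher and 9 lower, against 34.9% and 34.8% of all genes tested. The inducible HSP70 genes HSPA1A and HSPA1B fell together, HSPA1A with 121 to 134 TPM in DMSO and 28 to 30.7 TPM at 24 h and HSPA1B with 156 to 168 TPM in DMSO and 37.8 to 39 TPM at 24 h, and as near-identical copies they can share reads. Their cochaperone DNAJB1 fell, with 133 to 141 TPM in DMSO and 63.8 to 69.1 TPM at 24 h. PDIA4, a disulfide isomerase of the endoplasmic reticulum, rose, with 46.3 to 48.3 TPM in DMSO and 94.9 to 96.6 TPM at 24 h. HSPA8, the constitutive HSP70 and the most abundant member, had a log2 fold change of -0.41.

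In MHC class I and peptide loading 1 of 20 tested genes was called higher and 0 lower, against 9.03% and 4.7% of all genes tested. The called gene ERAP2, a peptide-trimming aminopeptidase, rose, with 2.21, 2.51 and 2.19 TPM in DMSO and 13, 12.5 and 11.3 TPM at 24 h. B2M, the light chain of class I, was at 1836, 2335 and 2158 TPM in DMSO and 3494, 3352 and 3325 TPM at 24 h (log2 fold change 0.61), with no overlap but short of 2-fold. In MHC class II 1 of 15 was called higher and 1 lower, against the same 9.03% and 4.7%. The protease CTSS, which trims the invariant chain, rose, with 46.5 to 54.3 TPM in DMSO and 144 to 146 TPM at 24 h, and the class II transactivator CIITA fell, with 18.8 to 24.1 TPM in DMSO and 5.99 to 8.21 TPM at 24 h. CD74, the invariant chain and the most abundant member, had a log2 fold change of -0.19.

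Among interferon-stimulated genes 12 of 37 tested were called higher and 1 lower, against 9.03% and 4.7% of all genes tested (median log2 fold change 0.30). IFI16, a sensor of DNA, rose, with 33 to 35.2 TPM in DMSO and 142 to 144 TPM at 24 h (log2 fold change 2.32, SE 0.05), and the restriction factor BST2 rose, with 46 to 48.6 TPM in DMSO and 142 to 148 TPM at 24 h. OAS1 and OAS3, which make the activator of RNase L, rose from low levels, OAS1 with 0.17 to 0.23 TPM in DMSO and 1.26 to 2.58 TPM at 24 h and OAS3 with 0.09 to 0.21 TPM in DMSO and 0.68 to 0.78 TPM at 24 h. IRF7, a factor that amplifies interferon transcription, fell, with 8.97 to 10.9 TPM in DMSO and 3.9 to 5.11 TPM at 24 h. IFITM2, which restricts viral entry and was the most abundant member, had a log2 fold change of 0.77 and was not called.

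Costimulatory and checkpoint genes had 8 of 27 tested called higher and 3 lower, against 9.03% and 4.7% of all genes tested, with a median log2 fold change of 0.44. CD80, like CD86 a ligand of CD28, rose from no more than 0.02 TPM to 0.47 to 0.76 TPM. VSIR, which encodes the checkpoint ligand VISTA, fell, with 94.6, 96.8 and 98.7 TPM in DMSO and 24, 27.8 and 32.8 TPM at 24 h, and CD244, a receptor of NK and myeloid cells, fell, with 73.5 to 77.5 TPM in DMSO and 25.1 to 25.8 TPM at 24 h. CD48, the ligand of CD244, rose, with 105 to 121 TPM in DMSO and 235 to 245 TPM at 24 h. The collagen receptor LAIR1, the most abundant member, had a log2 fold change of -0.90, short of 2-fold.

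All called members of the granulocyte list fell, whereas TCN1, a granulocyte gene outside that list, rose with a log2 fold change of 6.15. Of 20 tested neutrophil granule and granulocyte genes edgeR called 0 higher and 6 lower, against 9.03% and 4.7% of all genes tested. At an adjusted p under 0.05, 5 were higher and 10 lower, against 34.9% and 34.8% of all genes tested. The list as a whole moved little, with a median log2 fold change of -0.08 and, with an offset for GC content, of 0.03. Its members ranged from -2.91 to 1.21. Their summed level was 4024 to 4224 TPM in DMSO and 4244 to 4359 TPM at 24 h. BPI, an antibacterial granule protein, fell, with 22.1, 23.2 and 22.9 TPM in DMSO and 2.78, 3.25 and 3.31 TPM at 24 h (log2 fold change -2.91, SE 0.07). The granule protein AZU1 fell, with 2.29 to 2.68 TPM in DMSO and 0.20 to 0.34 TPM at 24 h. NCF1, a subunit of the NADPH oxidase, fell with 117 to 127 TPM in DMSO and 22.6 to 24.9 TPM at 24 h, and it has near-identical pseudogenes with which reads can be shared. The factors CEBPE and CEBPD, which drive granulocyte genes, fell with log2 fold changes of -1.18 and -1.13. SRGN, the granule proteoglycan and most abundant member, had a log2 fold change of -0.14.

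Of 39 tested monocyte and macrophage genes 7 were called higher and 7 lower, against 9.03% and 4.7% of all genes tested. The scavenger receptor CD36 rose, with 4.36, 3.77 and 4.55 TPM in DMSO and 37.2, 32.6 and 41.4 TPM at 24 h, while another scavenger receptor, MARCO, fell, with 9.02, 10 and 8.57 TPM in DMSO and 1.56, 2.03 and 1.67 TPM at 24 h. The groups of both genes stood apart. The transcription factor EGR2 rose, with 0.34 to 0.49 TPM in DMSO and 1.77 to 2.03 TPM at 24 h, and the glycoprotein GPNMB fell, with 8.58 to 9.42 TPM in DMSO and 3.05 to 3.21 TPM at 24 h. The Fc receptor FCGR2A, the most abundant member in DMSO, fell, with 316 to 345 TPM in DMSO and 137 to 153 TPM at 24 h, as did the integrin ITGAL, with 229 to 251 TPM in DMSO and 73.6 to 79.4 TPM at 24 h, and the inhibitory receptor LILRB4, with 215 to 219.8 TPM in DMSO and 64.1 to 73.9 TPM at 24 h.

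Genes of mast cells, basophils and eosinophils had a median log2 fold change of 1.28, with 6 of 16 tested called higher and 1 lower, against 9.03% and 4.7% of all genes tested. The list has 26 members, and those near 0 in DMSO were tested only where libraries with UM171 gave enough counts. Both the median and the called share therefore partly rest on that filter. The transcription factors GATA2 and MITF, which govern mast cell genes, rose, GATA2 with 33.5 to 34 TPM in DMSO and 100.3 to 146 TPM at 24 h and MITF with 2.12 to 2.56 TPM in DMSO and 10.5 to 19.2 TPM at 24 h. The mast cell protease CPA3 and the IgE receptor subunit FCER1A rose as well, with log2 fold changes of 2.97 and 3.12. The basophil surface enzyme ENPP3 rose, with 0.11 to 0.26 TPM in DMSO and 0.87 to 1.29 TPM at 24 h, and HPGDS, a prostaglandin D2 synthase, rose from no more than 0.03 TPM to 0.32 to 0.85 TPM. PRG2, the eosinophil major basic protein, fell, with 10.4, 13 and 11.6 TPM in DMSO and 4.6, 2.83 and 4.6 TPM at 24 h. RNASE2, an eosinophil ribonuclease and the most abundant member, overlapped between the groups (log2 fold change 0.03, adjusted p = 0.89 by edgeR). In the erythroid and megakaryocyte list 1 of 13 tested was called higher, against the same 9.03%. It was the platelet integrin ITGA2B, with 0.97 to 1.54 TPM in DMSO and 2.12 to 2.93 TPM at 24 h. CA2, a carbonic anhydrase and its most abundant member, had a log2 fold change of 0.55.

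Of 29 tested stem and progenitor genes 7 were called higher and 0 lower by edgeR, against 9.03% and 4.7% of all genes tested. At an adjusted p under 0.05, 10 were lower, against 34.8% of all genes tested. The median log2 fold change was 0.06. The homeobox factors HOXA5, HOXA7 and HOXA9 rose, HOXA5 with 0.11 to 0.20 TPM in DMSO and 1.36 to 2.16 TPM at 24 h and HOXA9 with 14.9 to 18.3 TPM in DMSO and 34.1 to 35.7 TPM at 24 h. MLLT3, a factor that maintains human stem cells, rose, with 8.62 to 9.65 TPM in DMSO and 23.4 to 25.7 TPM at 24 h, and ID3, an inhibitor of basic helix-loop-helix factors, rose, with 0, 0 and 0.07 TPM in DMSO and 0.83, 1.05 and 0.61 TPM at 24 h. SPI1, a master factor of myeloid cells and the most abundant member in DMSO, was at 426, 403 and 421 TPM in DMSO and 205, 216 and 241 TPM at 24 h (log2 fold change -0.95), just short of 2-fold. CD34, the classical surface marker of progenitors, had a log2 fold change of -0.99.

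In the list of AP-1 and immediate early factors 6 of 29 tested were called higher and 2 lower, against 9.03% and 4.7% of all genes tested, with a median log2 fold change of -0.15. The zinc finger factor EGR1 rose, with 1.82, 1.96 and 2.03 TPM in DMSO and 24.9, 25 and 36.3 TPM at 24 h (log2 fold change 3.84, SE 0.15), and its relative EGR3 rose, with 0.02 to 0.04 TPM in DMSO and 0.61 to 1.21 TPM at 24 h. MYC, the growth factor-responsive regulator and the list's most abundant member in DMSO, fell, with 681, 689.8 and 692 TPM in DMSO and 303, 301 and 311 TPM at 24 h (log2 fold change -1.24, SE 0.07). These groups did not overlap. KLF2, a factor of quiescence, fell, with 10.3 to 13.1 TPM in DMSO and 3.22 to 4.64 TPM at 24 h. FOS and JUN, the founding AP-1 subunits, had log2 fold changes of -0.54 and -0.56. Among feedback genes of ERK and cAMP signalling 6 of 29 were called higher and 1 lower, against the same 9.03% and 4.7%. PDE4B, which degrades cAMP, rose, with 0.40 to 0.65 TPM in DMSO and 3.77 to 5.24 TPM at 24 h, and SPRY4, an inhibitor of receptor tyrosine kinase signalling, rose from no more than 0.04 TPM to 0.36 to 0.63 TPM. The phosphatase DUSP3 fell, with 89.2 to 92.9 TPM in DMSO and 33 to 34.4 TPM at 24 h. RGS18, a regulator of G protein signalling and the most abundant member, had a log2 fold change of -0.30.

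Growth-related lists moved by less than 2-fold at the median and in different directions. Proteasome subunits were higher at an adjusted p under 0.05 in 33 of 34 tested genes, against 34.9% of all genes tested, with a median log2 fold change of 0.77. Of these 34 edgeR called 4 higher, PSMB2, PSMB6, PSMC3 and PSMD1, a share near the 9.03% of all genes tested. PSMB2, a core subunit, rose, with 82.3, 75.9 and 84.7 TPM in DMSO and 200.1, 219 and 221 TPM at 24 h, and PSMD1, a regulatory subunit, rose, with 88.9 to 103 TPM in DMSO and 208 to 216 TPM at 24 h. PSMB4, the most abundant, had a log2 fold change of 0.79. The summed level of the list was 4598 to 4777 TPM in DMSO and 7940 to 8264 TPM at 24 h, with no overlap.

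Against the same 34.9% of all genes tested, genes of G2 and mitosis were higher at an adjusted p under 0.05 in 38 of 42 (median log2 fold change 0.52). Genes of DNA replication were so in 38 of 43 (median 0.37). Of these lists edgeR called 1 of 42 and 5 of 43 higher, shares below and near the 9.03% of all genes tested. RRM2, a subunit of ribonucleotide reductase, rose, with 120.0, 132 and 129 TPM in DMSO and 315, 324 and 324 TPM at 24 h. POLA1, of DNA polymerase alpha, rose, with 7.96 to 8.8 TPM in DMSO and 20.4 to 21.1 TPM at 24 h, and ESPL1, the protease separase, rose, with 14.4 to 15.6 TPM in DMSO and 31.5 to 35.9 TPM at 24 h. PCNA, the replication clamp, and CKS2, a partner of mitotic kinases, the most abundant of their lists, had log2 fold changes of 0.17 and 0.03. Nuclear-encoded respiratory chain genes were higher at an adjusted p under 0.05 in 62 of 76, also against 34.9% (median 0.43). Of these 76 edgeR called 4 higher, a share below the 9.03% of all genes tested. NDUFB2 of complex I rose, with 40.7 to 43.6 TPM in DMSO and 108 to 112 TPM at 24 h, and ATP5MC1 of the ATP synthase rose, with 71.1 to 85.2 TPM in DMSO and 182 to 204 TPM at 24 h. UQCRB of complex III, the most abundant, overlapped between the groups (log2 fold change 0.12).

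MYC-linked ribosome biogenesis genes were lower at an adjusted p under 0.05 in 34 of 40, against 34.8% of all genes tested (median log2 fold change -0.44), and RRP12, which takes part in the export of ribosomal subunits, fell, with 75.3, 79.5 and 76.3 TPM in DMSO and 32.4, 34.5 and 34.6 TPM at 24 h. NPM1, the most abundant member, was higher at that limit, with a log2 fold change of 0.28. Cytosolic ribosomal protein genes were lower at that limit in 59 of 79, also against 34.8% (median -0.23). Of these 79 edgeR called 0 higher and 0 lower, against 9.03% and 4.7% of all genes tested. Their summed level was 177000 to 182300 TPM in DMSO and 158100 to 161800 TPM at 24 h. RPL41, the most abundant, had a log2 fold change of -0.12. Of the 13 mitochondrially encoded genes edgeR called 0, against 13.7% of all genes tested. At an adjusted p under 0.05, 1 was lower, against 34.8% of all genes tested. MT-CO1, the most abundant, had a log2 fold change of -0.21 (adjusted p = 0.19 by edgeR).

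Among CDK inhibitors and G1 cyclins edgeR called 0 of 26 higher and 0 lower, against 9.03% and 4.7% of all genes tested. At an adjusted p under 0.05, 16 were higher and 8 lower, against 34.9% and 34.8% of all genes tested. CDKN1A, the p21 gene and most abundant member, had a log2 fold change of 0.44. In the BCL2 family and death receptor list 2 of 22 were called lower and 0 higher by edgeR, against 4.7% and 9.03% of all genes tested. At an adjusted p under 0.05, 5 were higher, against 34.9% of all genes tested. BCL2L11, which encodes the death-promoting protein BIM, fell, with 15.1, 18.8 and 17.5 TPM in DMSO and 8.71, 7.15 and 6.94 TPM at 24 h, and the initiator caspase CASP9 fell, with 9.29 to 10.2 TPM in DMSO and 4.64 to 5.61 TPM at 24 h. BAX, a pore-forming death protein and the most abundant member, had a log2 fold change of 0.07 (adjusted p = 0.19 by edgeR).

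**Figure D3:**
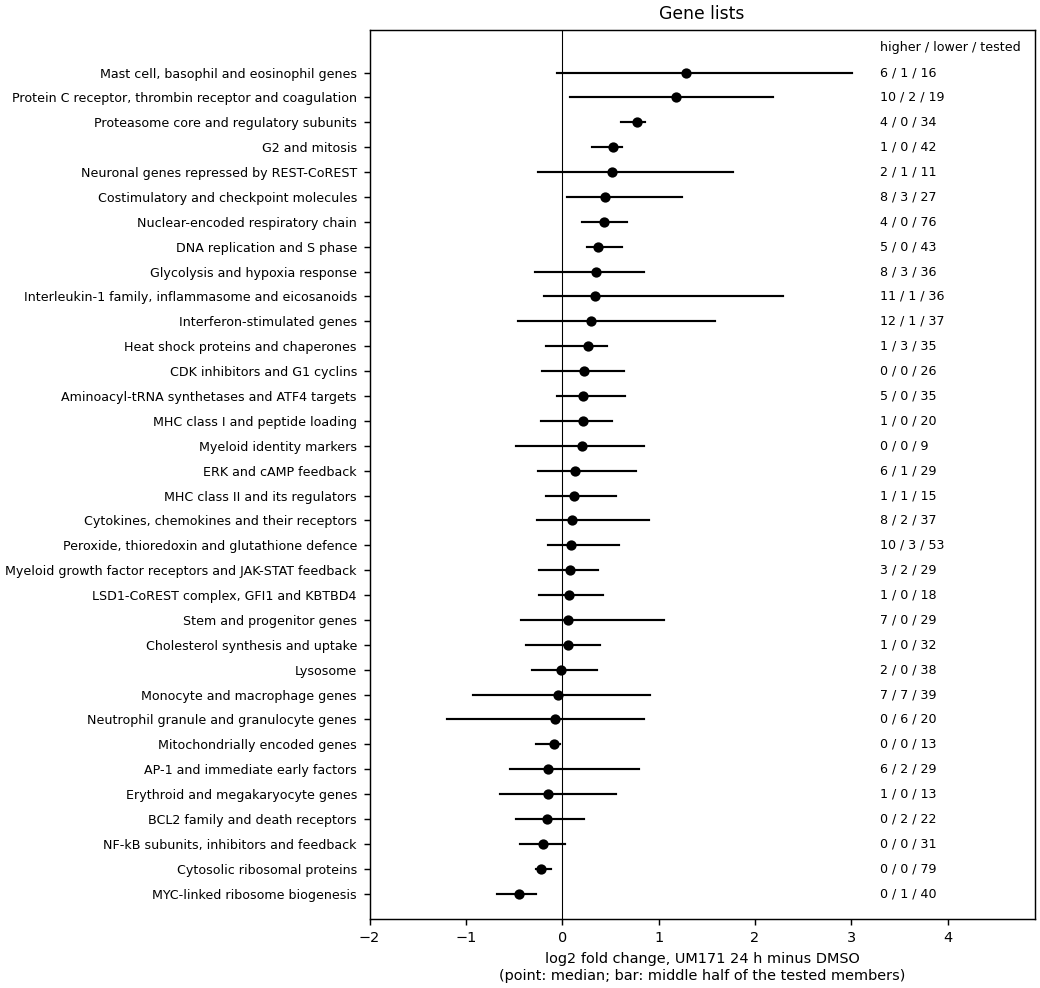
Median log2 fold change (UM171 24 h minus DMSO) of the tested members of each gene list, with a bar over the middle part of the members, from the 25th to the 75th percentile, and the numbers of genes called higher, called lower and tested. The proteasome list has its median at 0.77, the ribosome biogenesis list at -0.44 and the mast cell list at 1.28.

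In glycolysis and hypoxia response 8 of 36 tested genes were called higher and 3 lower, against 9.03% and 4.7% of all genes tested. The glucose transporter SLC2A3 rose, with 7.14, 7.17 and 7.25 TPM in DMSO and 58.8, 62.8 and 88 TPM at 24 h, and the phosphofructokinase PFKM rose, with 2.02 to 2.5 TPM in DMSO and 15.9 to 17.7 TPM at 24 h. Aldolase C, ALDOC, fell, with 182, 208 and 197 TPM in DMSO and 8.01, 6.36 and 12.3 TPM at 24 h (log2 fold change -4.65, SE 0.13). GPI, the isomerase of glucose 6-phosphate, fell, with 731, 809.8 and 806 TPM in DMSO and 302, 317 and 341 TPM at 24 h. In these 4 genes the groups stood apart. ADM, a hypoxia-induced peptide gene, fell, with 4.85 to 6.1 TPM in DMSO and 1.67 to 2.13 TPM at 24 h, and GAPDH, the most abundant member, overlapped between the groups (log2 fold change -0.11). Transketolase, TKT, of the pentose phosphate pathway, was among the 5 largest falls in TPM, with 835 to 892 TPM in DMSO and 383 to 414 TPM at 24 h.

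Of 35 tested tRNA synthetase and ATF4 target genes 5 were called higher and 0 lower by edgeR, against 9.03% and 4.7% of all genes tested. At an adjusted p under 0.05, 7 were lower, against 34.8% of all genes tested. All 3 enzymes of serine synthesis were among those called higher: PSAT1 rose, with 56.9, 60.7 and 60.1 TPM in DMSO and 196, 195 and 205 TPM at 24 h, PHGDH rose, with 40.3 to 43.6 TPM in DMSO and 129.6 to 141 TPM at 24 h, and PSPH rose, with 9.84 to 11.2 TPM in DMSO and 25.1 to 25.9 TPM at 24 h. DDIT4, an inhibitor of mTORC1, rose, with 7.34 to 8.4 TPM in DMSO and 30.4 to 43.8 TPM at 24 h, and the synthetase TARS1, the most abundant member, had a log2 fold change of 0.38. In cholesterol synthesis and uptake 1 of 32 was called higher, against 9.03% of all genes tested. It was the sterol carrier STARD4, with 18.1 to 21.4 TPM in DMSO and 40.7 to 47.3 TPM at 24 h. FDPS, a synthase of the pathway and the most abundant member, had a log2 fold change of -0.44. Lysosome genes gave 2 calls higher of 38, again against 9.03% of all genes tested. Among them was the protease CTSL, with 4.87 to 5.54 TPM in DMSO and 14.4 to 16.3 TPM at 24 h. CTSZ, a further protease and the most abundant, had a log2 fold change of 0.08.

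The 10 largest rises among called genes with an average log2 CPM over 2 and no overlap were genes near 0 in DMSO. That average is over the 15 libraries of the fit, so high levels at other times in UM171 helped genes to enter. The immunoglobulin variable segment IGHV1-3, one of a family of similar sequences, rose, with 0.99, 2.48 and 0.77 TPM in DMSO and 243, 204 and 249 TPM at 24 h (log2 fold change 7.33, SE 0.23). KRT15, a keratin of basal epithelium, is listed at 0 TPM in all DMSO libraries and at 0.92 to 1.77 TPM at 24 h. Its mean was 16.4 TPM at 48 h and 42.7 TPM at 72 h of UM171. TCN1, a vitamin B12 carrier of granulocytes, rose, with 0.51, 0.22 and 0.30 TPM in DMSO and 13.3, 9.08 and 15.2 TPM at 24 h. CD22, a B-cell lectin, rose, with 0.04 to 0.20 TPM in DMSO and 2.46 to 2.66 TPM at 24 h. MLLT11 rose, with 0.29 to 0.34 TPM in DMSO and 9.99 to 10.6 TPM at 24 h, FSD1 with 0.08 to 0.21 TPM in DMSO and 5.5 to 6.1 TPM at 24 h and MACC1 with 0.03 to 0.10 TPM in DMSO and 1.92 to 1.95 TPM at 24 h. The noncoding RNA LINC01235 rose from no more than 0.07 TPM to 4.08 to 5.44 TPM, and EGR3 was also among the 10.

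The 10 largest falls by the same rule were NAPSB, ALDOC, LSP1, HMOX1, DCANP1, TIFAB, COL7A1, OLR1, PTGES3L-AARSD1 and RGL4. NAPSB, a transcribed pseudogene of an aspartic protease, fell, with 14.1, 15.7 and 14.8 TPM in DMSO and 0.46, 0.32 and 0.41 TPM at 24 h (log2 fold change -5.3, SE 0.15). OLR1, a receptor of oxidized lipoprotein, fell, with 50.7, 51 and 53.1 TPM in DMSO and 5.62, 5.5 and 7.42 TPM at 24 h. LSP1, an actin-binding protein of leukocytes, fell, with 11.5 to 13.3 TPM in DMSO and 0.57 to 1.51 TPM at 24 h. TIFAB, a relative of an adaptor of TRAF6, fell, with 26.6 to 29.2 TPM in DMSO and 2.9 to 3.35 TPM at 24 h, and DCANP1, whose position overlaps it on chromosome 5 so that reads can be shared, fell, with 3.83 to 5.75 TPM in DMSO and 0.11 to 0.65 TPM at 24 h. The collagen COL7A1 fell, with 2.87 to 5.21 TPM in DMSO and 0.83 to 1.24 TPM at 24 h, RGL4 with 40.1 to 51.4 TPM in DMSO and 5.3 to 5.63 TPM at 24 h and the readthrough PTGES3L-AARSD1, which shares exons with its neighbours, with 9.23 to 10.3 TPM in DMSO and 0.95 to 2 TPM at 24 h.

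By absolute level, the 5 largest rises in TPM among called genes were those of HNRNPA2B1, CCL2, HMGB1, PRDX1 and CXCL8. HNRNPA2B1, an RNA-binding protein of messenger RNA processing, was at 668, 739 and 703 TPM in DMSO and 1973, 1831 and 1702 TPM at 24 h. HMGB1, a chromatin protein that signals danger when released, was at 478, 477 and 486 TPM in DMSO and 1079, 1082 and 1028 TPM at 24 h. In neither did the groups overlap. The 5 largest falls were those of ACTG1, FTH1, TKT, GPI and MAT2A. Gamma actin, ACTG1, was at 6683, 6355 and 6729.6 TPM in DMSO and 3013, 3074 and 3557 TPM at 24 h. MAT2A, which makes the methyl donor S-adenosylmethionine, was at 745 to 756 TPM in DMSO and 341 to 361 TPM at 24 h.

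The 5 genes of highest mean TPM at 24 h among those with at most 3 counts in every DMSO library were short or rest on few reads. MIR590, SNORD116-22 and a Y_RNA copy were each above 0 in 1 of the 3 libraries at 24 h, and ARMC2-AS1 was at 2.83 to 7.65 TPM in DMSO and 16.9 to 20.3 TPM at 24 h; these 4 were too low in counts to be tested. The T-cell receptor gamma segment TRGV7 rose, with 0.17 to 0.33 TPM in DMSO and 5.68 to 10.1 TPM at 24 h.

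Markers of lymphoid, epithelial and stromal cells were counted as whole lists, and their part in the results was not tested. A gene near 0 in DMSO was tested only where libraries with UM171 gave enough counts. The numbers of called markers therefore partly rest on that filter. Of all genes tested 9.03% were called higher and 4.7% lower. Of 8 B-cell markers 4 were tested and 4 called higher, with a summed level of 9.68 to 10.5 TPM in DMSO and 31 to 34.1 TPM at 24 h, most of it from CD79A, part of the B-cell receptor (9.33 to 10.2 TPM and 27.3 to 30.6 TPM). PAX5 is listed at 0 TPM in DMSO and at 0.07 to 0.12 TPM at 24 h, and the defining marker MS4A1 was at 0 in all 6 libraries. Of 12 T and NK cell markers 5 were tested and 2 called higher, CD3D (0.11 to 0.80 TPM and 5.31 to 7.83 TPM) and TRAC (6.63 to 6.71 TPM and 18.8 to 28.9 TPM), with a summed level of 40.6 to 42.8 and 68.6 to 82 TPM. NCAM1, the most abundant of these, was at 16.9 to 20.1 TPM and 31.9 to 34.5 TPM and not called, while CD3G, CD5, CD8B and LCK were at 0 in all 6 libraries. Of 8 epithelial markers 3 were tested and 2 called higher, EPCAM (0 to 0.08 TPM and 0.32 to 0.34 TPM) and ESRP1 (0.03 to 0.10 TPM and 0.33 to 0.43 TPM), with a summed level of 1.6 to 2.4 and 2.3 to 3.47 TPM and with KRT5 and KRT14 at 0. CLDN7, the most abundant of them, overlapped between the groups. Of 12 fibroblast and endothelial markers 6 were tested, with COL3A1 (0.05 to 0.07 TPM and 0.26 to 0.41 TPM) and COL1A2 (0.07 to 0.10 TPM and 0.30 to 0.51 TPM) called higher and ESAM (0.93 to 1.49 TPM and 0.40 to 0.93 TPM) lower, a summed level of 1.17 to 1.75 and 1.58 to 2.18 TPM, and DCN, LUM and CDH5 at 0.

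Neuronal genes, a classical group of targets of REST and CoREST, were mostly silent, and 11 of 35 could be tested. Of these 2 were called higher and 1 lower, against 9.03% and 4.7% of all genes tested. Here too a gene near 0 in DMSO was tested only where libraries with UM171 gave enough counts. The sodium channel SCN3A is listed at 0 TPM in all DMSO libraries and at 1.19 to 1.77 TPM at 24 h. The granin CHGB rose, with 0.03 to 0.09 TPM in DMSO and 0.43 to 0.57 TPM at 24 h, and the cadherin CELSR3 fell, with 0.35 to 0.44 TPM in DMSO and 0.13 to 0.27 TPM at 24 h.

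The other times in UM171 show where 24 h lies in the course of these genes. PROCR was at 11.8 ± 1.49 TPM (SD, n = 3) at 6 h, 48.5 ± 0.01 TPM at 24 h, 41.1 ± 4.21 TPM at 48 h and 29.7 ± 2.11 TPM at 72 h. In a direct contrast of 48 h with 24 h, IL1B, CCL2 and CXCL8 had log2 fold changes of 0.81, 1.17 and 1.25, with edgeR adjusted p of 1.1e-07, 5.9e-07 and 6.4e-08. SOD1, PRDX1 and HMGB1 had log2 fold changes of -0.28, -0.48 and -0.34 there, with edgeR adjusted p of 0.00074, 1.1e-05 and 9.3e-07. The inflammatory genes were thus higher still at 48 h, and the other 3 lower. At 72 h, the time at which the control was labelled, the mean was 146 TPM for SOD1 and 312 TPM for PRDX1, against 132 and 277 TPM in DMSO. ALDOC was at 98.3 TPM, HMOX1 at 4.23 TPM and IL6R at 44.2 TPM in those libraries.

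**Figure D4:**
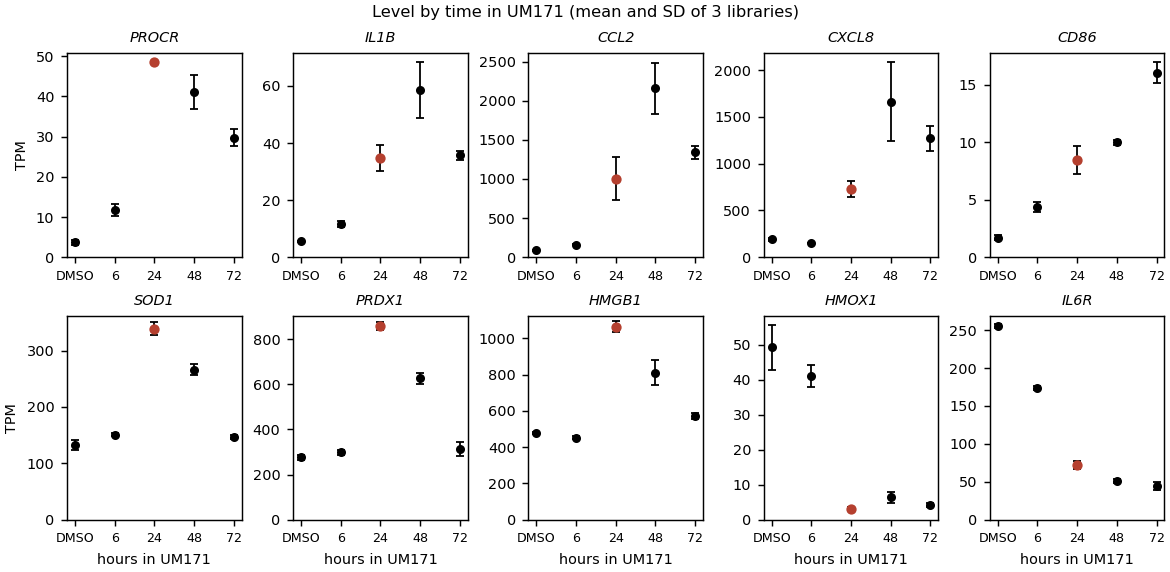
TPM (mean and SD of 3 libraries) of 10 genes in DMSO and after 6, 24, 48 and 72 h of UM171. IL1B, CCL2 and CXCL8 lie higher at 48 h than at 24 h, and SOD1, PRDX1 and HMGB1 lower.

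For the proteasome list the median log2 fold change against the shared DMSO libraries was -0.33 after 6 h of UM171, 0.77 after 24 h, 0.42 after 48 h and -0.32 after 72 h. In the same order the G2 and mitosis list gave -0.07, 0.52, 0.18 and -0.18, the DNA replication list -0.23, 0.37, 0.12 and -0.62, and the respiratory chain list -0.18, 0.43, 0.26 and -0.02. These 4 lists had their highest median at 24 h. Ribosome biogenesis genes gave -0.44, -0.44, -0.79 and -1.31, and the mast cell list 0.37, 1.28, 2.78 and 3.59. All share the same control libraries and are given side by side without a test.

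In sgEPCR cells, clones in which a guide targets PROCR, 24 h of UM171 was set against DMSO libraries that are also labelled 24 h, and no library was shared with the control cells. In 2 of these 6 libraries, 1 in each group, mitochondrial genes took 35.9% and 32.2% of the counts, so values are given with and without them. Of the genes called higher in control cells, 1390 were tested in sgEPCR cells and 1082 of these (77.8%) lay above 0, with a median log2 fold change of 0.93. Without the 2 libraries 1130 of 1442 (78.4%) did, with a median of 0.99. Genes called higher thus lay mostly above 0 in sgEPCR cells, against 49.5% of all genes tested there (50.7% without the 2 libraries). Of the genes called lower, 711 were tested and 331 lay below 0, with a median of 0.10, and without the 2 libraries 337 of 737 did, with a median of 0.12. These lay on both sides of 0.

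The mitosis, replication, proteasome and respiratory chain lists had medians on opposite sides of 0 in the 2 kinds of cells. In sgEPCR cells 0 of 42 genes of G2 and mitosis and 0 of 43 of DNA replication were above 0, with median log2 fold changes of -0.79 and -0.81 (-0.82 and -0.81 without the 2 libraries). Proteasome genes were above 0 in 0 of 34 (median -0.38, and -0.35 without the 2 libraries) and respiratory chain genes in 4 of 76 (median -0.37, and -0.37). Ribosome biogenesis genes had a median of -1.2 (-1.22 without the 2 libraries), the mast cell list one of 3.53 (3.75) and the coagulation list one of 2.24 (2.24), each on the side of 0 found in control cells. The DMSO time label, the guide, the choice of clones and the experiment cannot be told apart here, and the difference between the 2 kinds of cells was not tested.

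**Figure D5:**
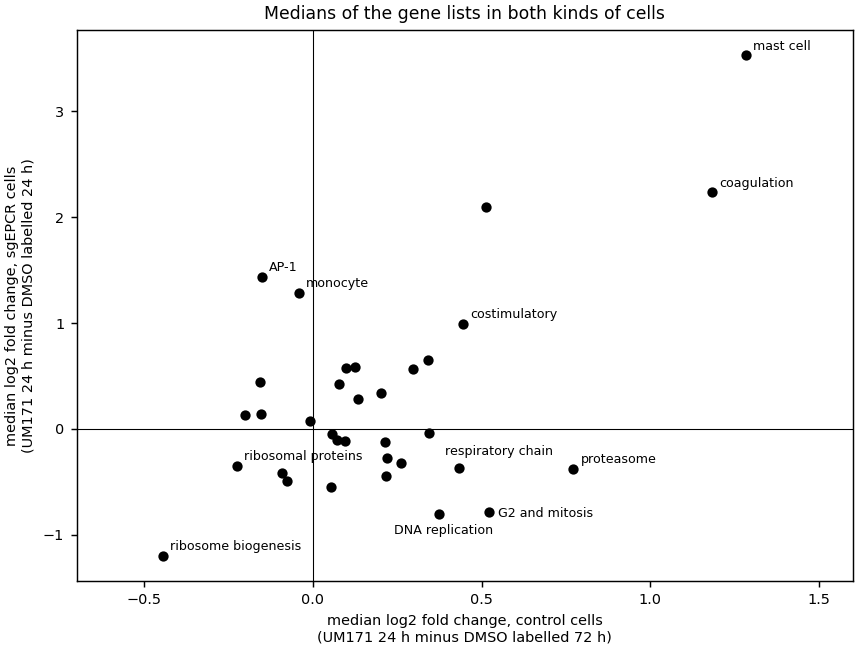
Median log2 fold change of each gene list with at least 5 members tested in sgEPCR cells, in control cells (horizontal axis) and in sgEPCR cells (vertical axis). The G2 and mitosis list lies at 0.52 and -0.79, and the mast cell list at 1.28 and 3.53.

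Among single genes, IL1B, CD86 and CCL2 had log2 fold changes of 5.33, 3.37 and 4.69 in sgEPCR cells (5.39, 3.13 and 4.75 without the 2 libraries). PROCR, the gene the guide targets, had 0.67 there (0.81), and IL6R had -1.22 (-1.25). SOD1 had -0.61 (-0.58 without the 2 libraries), PRDX1 0.18 (0.19), HMGB1 -0.71 (-0.81) and MYC -1.96 (-1.9).

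GC content moved with the comparison: from the fifth of genes with the lowest GC to the fifth with the highest, the median log2 fold change was 0.11, 0.09, 0.03, -0.09 and -0.21. With an offset for GC content, chosen after seeing the data, 2161 genes were called, 1443 higher and 718 lower. The medians of the proteasome, G2 and mitosis, DNA replication and ribosome biogenesis lists were then 0.70, 0.43, 0.41 and -0.51. Some medians nearer 0 changed sign. The AP-1 list went from -0.15 to 0.02, the granulocyte list from -0.08 to 0.03 and the lysosome list from -0.009 to 0.05. Cholesterol genes went from 0.05 to -0.02, and growth factor receptor and JAK-STAT genes from 0.08 to -0.001.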

How the data were processed

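The OCI-AML5 libraries were stranded poly(A) RNA-seq libraries. Per the submitters' processing notes, CASAVA 1.8.2, Trimmomatic 0.35, STAR 2.5.1b and RSEM 1.2.28 were used with GRCh38. The expected counts deposited for each library are RSEM estimates that divide shared reads among genes and carry no scaling. The TPM values deposited beside them account for effective length. The 45 pseudoautosomal entries of Y were added to their X copies, leaving 58174 identifiers, of which 57392 were found in GENCODE 44 (GRCh38) for names and positions.

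Expected counts were rounded and tested with edgeR 4.0.16 in R 4.3.3: filterByExpr, TMM scaling, glmQLFit and glmQLFTest. The fit held the 15 libraries of DMSO and UM171 at 6, 24, 48 and 72 h with the group as the only term, and sgEPCR libraries (6) had a fit of their own. P-values were adjusted by Benjamini-Hochberg over all tested genes, and the call needed more than a 2-fold change beside an adjusted p below 0.0001. The SE of a log2 fold change was taken as its size over the root of the F statistic. Totals were 33.6 to 38.3 M counts in DMSO and 24.3 to 51.5 M at 24 h. A signal of at most 3 counts was taken as off, a floor that covers counting error only. On simulated data with 200 genes changed by 4-fold, edgeR recovered 200 of these 200 among 16575 genes with 0 false calls. The pipeline for the sgEPCR fit recovered 180 of 200 among 14954 genes. In both simulations the changed genes were drawn only from genes with many counts, and all genes had a common spread. Recovery of genes with few counts was therefore not tested.

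The members and the 38 gene lists were chosen with earlier results of these data known. Named genes were the 4 genes the study follows; the 10 largest rises and the 10 largest falls among called genes with an average log2 CPM over 2 and no overlap in TPM; the 5 largest called rises and the 5 largest called falls in mean TPM; the 5 genes off in DMSO with the highest TPM at 24 h; and per list the 2 called members with the largest rise, the 2 with the largest fall and the most abundant in DMSO. The average log2 CPM was taken over the 15 libraries of the fit. Further list members were chosen after their values were seen. The test was repeated in DESeq2 1.42.0 and, for log2(TPM + 1), in limma 3.58.1, and with other scalings, filters, thresholds and sets of libraries, the replicate number as a block and leaving out each library. Same-numbered libraries of the 2 groups did not deviate together (r = -0.002, -0.05 and -0.027 across genes). Promoters came from RefSeq (GRCh38.p14) by symbol. Figures used Python 3.11.15 and matplotlib 3.10.9. Some genes that this rule names are not reported here.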

Additional observations from a re-analysis of the deposited data

Results flagged for a closer look

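For 6 of the 150 named genes every sgEPCR library at 24 h of UM171 lay above every sgEPCR DMSO library, while every control library at 24 h lay below every DMSO library. A rise in sgEPCR cells was common among genes called lower in control cells: 380 of 711 tested lay above 0 there. The share of all genes that meet the limit used for the 6 is not given. Named genes were picked in part for large falls in control cells, so whether 6 of 150 is many cannot be judged. This limit, with an adjusted p under 0.05 in sgEPCR cells, was set after seeing the data, and the difference between the 2 kinds of cells was not tested. HMOX1, heme oxygenase, had a log2 fold change of 4.62 in sgEPCR cells and -3.98 in control cells. The lipoprotein receptor OLR1 had 2.67 and -3.09, and FTH1, ferritin heavy chain, had 1.38 and -1.21. GPNMB, a macrophage glycoprotein, had 2.09 and -2.2, the eosinophil gene PRG2 had 1.65 and -1.54, and the transcription factor KLF2 had 4.24 and -1.61. Without the 2 sgEPCR libraries with over 20% mitochondrial counts the sgEPCR values were 4.71, 2.71, 1.38, 1.99, 1.68 and 4.28 in the same order. The DMSO libraries are labelled 72 h for control cells and 24 h for sgEPCR cells, and this cannot be told apart from the guide, the choice of clones or the experiment.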

How the results depend on the processing

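The number of genes called at 24 h, 2276, stayed within 1.5 times under other scalings (2271 to 2277), filters (1788 to 2746), DESeq2 (2313), a fit of the 6 libraries alone (2117) and an offset for GC content chosen after seeing the data (2161). Leaving out each library in turn gave 2069 to 2197. The numbers of the labels did not pair the samples, and with the replicate number as a block 2199 genes were called. Limma on log2(TPM + 1) called 1262 genes, 897 higher and 365 lower, a scale that understates changes of low genes. Without a minimum fold, an adjusted p under 0.05 gave 11560 genes, 5785 higher and 5775 lower, and with 2-fold it gave 1306 lower. In sgEPCR cells edgeR called 60 genes, and 5535 at an adjusted p under 0.05 without a minimum fold. With the replicate block it called 0 there, with 5137 genes at an unadjusted p under 0.05, and without any 1 of the 6 libraries 0 to 0, with 5850 to 7934 at that limit. Without the 2 libraries with over 20% mitochondrial counts, a choice made after seeing the data, it called 2597; so no count of sgEPCR calls is used above. The sign turned for 4 genes that were not called: PTGES3 (-0.02) gave 0.0067 among genes with 10 counts or more in all libraries, 0.026 with limma, 0.011 with total count scaling and -0.0514 to 0.026 when leaving out each library; RNASE2 (0.03) gave -0.081 with the GC offset and -0.0078 to 0.0886 when leaving out each library, negative without DMSO replicate 2 or UM171 24h replicate 2 (-0.0044); CKS2 (0.03) gave -0.085 and UQCRB (0.12) gave -0.014 with the GC offset. The cause was not tested.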
